A study of Mus musculus with 20 samples.

Results

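Neurotransmitter receptor subunits are the protein chains that assemble into the receptors by which neurons and muscle fibres sense a released transmitter. They were taken here as every gene, measured by a probe set with a single symbol, that belongs to the AMPA (Gria), NMDA (Grin), kainate (Grik) and metabotropic (Grm) glutamate receptors, the GABA-A (Gabr) and glycine (Glr) receptors, the nicotinic acetylcholine receptors (Chrn) or the serotonin receptors (Htr). The rule took 69 genes, measured by 133 probe sets, of 18194 genes in all, and used symbols and no signal. The 5 muscle nicotinic subunits were kept apart from the other 64.

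RNA was measured in C57BL/6 wild-type mouse embryos kept specific-pathogen free, whole but for the amnion and of mixed sex, daily at E7.5 to E10.5 and then on every second day at E12.5 to E18.5, which makes 8 stages. Each of the 20 samples was total RNA pooled from several embryos and hybridised with a biotin label to its own Affymetrix mouse genome array. The stages up to E10.5 had 3 arrays each and those from E12.5 had 2, described as biological replicates. The p-values thus measure the spread between pools, and their precision is limited by how few arrays there were. No dose, mutation or other treatment was involved, and the comparisons are between stages.

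Ligand-gated receptors are rings of subunits around an ion channel. Glutamate and acetylcholine channels pass cations and excite the cell, whereas GABA-A and glycine channels pass chloride. Which subunits a cell makes sets the speed, the conductance and the drug sensitivity of its receptors, and several pairs of subunits are known to replace each other as synapses mature. Metabotropic glutamate receptors and most serotonin receptors signal through G proteins instead, apart from the Htr3 channels. The muscle receptor of the embryo is built from alpha1, beta1, delta and gamma subunits, and in the adult endplate epsilon takes the place of gamma.

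Values are MAS5 signals on a linear scale. A change is given on the log2(signal + 25.9) scale with its SE from limma, a scale that understates the change of low signals, and a gene was called where the Benjamini-Hochberg adjusted p over all genes tested was below 0.05 and the change was at least 2-fold. Of the 69 subunit genes, 36 exceeded the array's median signal on 2 or more arrays, and these were tested among 14045 genes. A subunit that passed this filter only through the stage where it is high had to differ, so for each comparison the total over all 69 is given beside that over the 36, while class counts are over tested genes. Levels of different probe sets are not read against each other, because probe sets differ in their response.

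The 8 arrays from E12.5 on stood apart from the 12 earlier ones. The median signal was 156 to 178 on the 8 later arrays and 67.2 to 91.1 on the 12 earlier ones. The control probe set for the middle part of the dap transcript had 1810 to 2570 on the later arrays and 50.8 to 119 on the earlier ones. Between E10.5 and E12.5 stage and array set cannot be told apart, so the comparisons within each set carry the results, and the step between them is given with that limit. Correlations between arrays of the same stage were 0.977 to 0.991 across the genes tested. The samples held the tissues that carry these receptors: the summed signal of 15 neuronal genes was 3530 to 3840 at E7.5, 28900 to 31600 at E10.5, 43300 to 43900 at E12.5 and 21900 to 22900 at E18.5, and that of 16 skeletal muscle genes was 649 to 703, 5980 to 6600, 18900 to 19100 and 227000 to 241000 at the same 4 stages. In RNA of whole embryos, fewer cells of a type and less RNA per cell cannot be told apart.

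**Figure D1:**
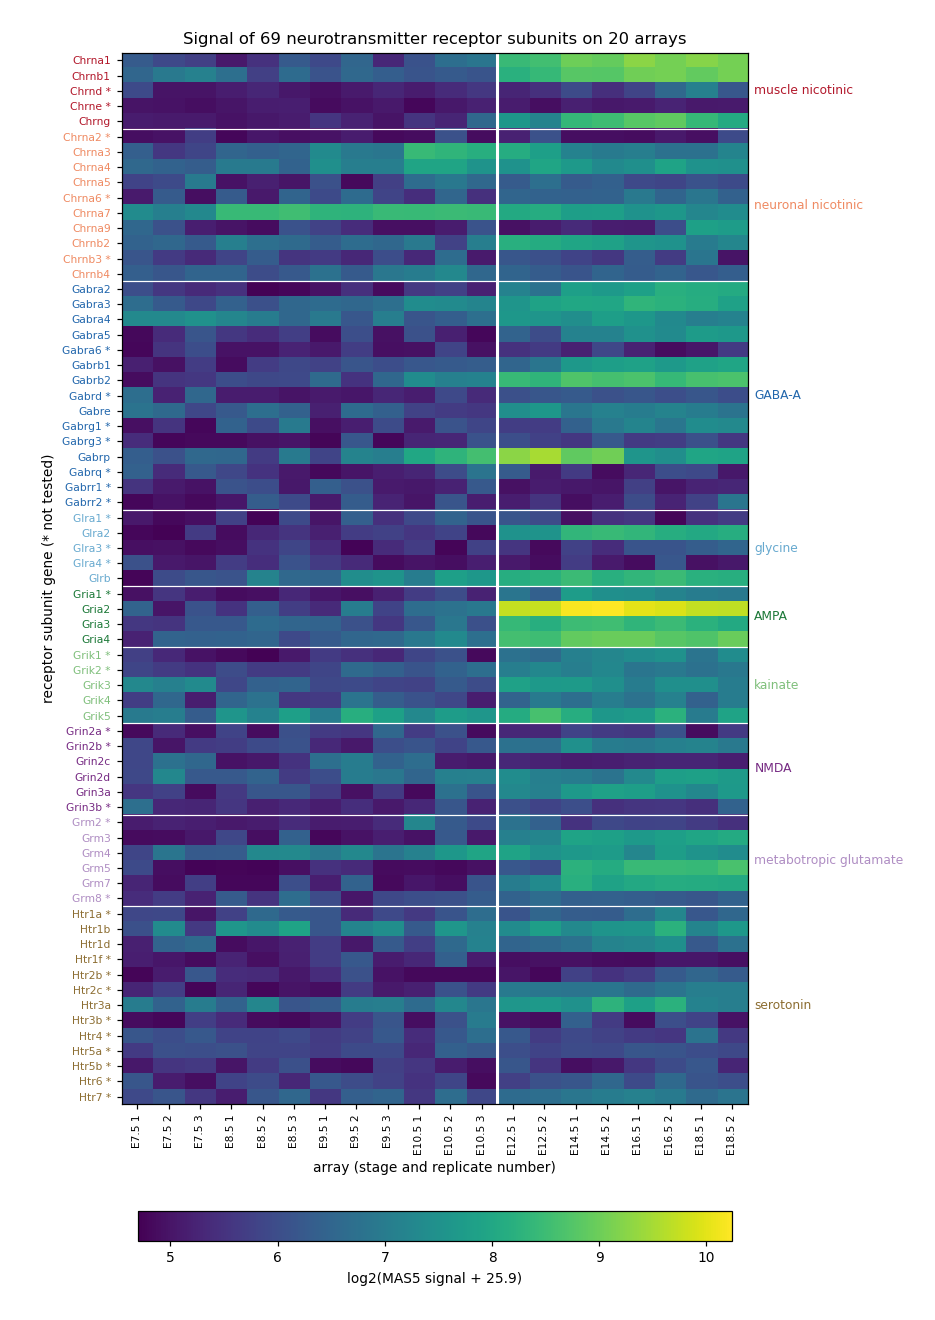
Values of log2(signal + 25.9) for the 69 subunit genes (rows, grouped by receptor class), with columns in order of stage. Rows can be read across but not against each other, because probe sets differ in their response. The step between E10.5 and E12.5 also crosses the 2 array sets.

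The muscle nicotinic subunits are described one by one, and a difference between their courses was not tested. On the probe sets used, the alpha1, beta1 and gamma genes had high signals from E12.5 on. That of the delta gene reached a visible signal later, and that of the epsilon gene stayed low on every array. Because probe sets differ in their response, a later visible signal does not show a later onset. Chrna1, whose alpha1 chain carries the acetylcholine site, had signals of 42.4, 77.5 and 89.5 at E10.5, 326 and 352 at E12.5, 489 and 458 at E14.5, 593 and 516 at E16.5, and 571 and 517 at E18.5. Chrnb1, the beta1 chain, had 44.7, 51.2 and 44.3 at E10.5, 272 and 315 at E12.5, 418 and 414 at E14.5, 502 and 515 at E16.5, and 453 and 517 at E18.5. For both genes no array from E12.5 onward overlapped those of E10.5, and the arrays of E18.5 lay above those of E12.5.

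Chrng, the embryonic gamma chain, peaked at E16.5. Its signals were 20, 12.6 and 69 at E10.5, 171 and 118 at E12.5, 308 and 342 at E14.5, 421 and 448 at E16.5, and 311 and 244 at E18.5. The stages from E12.5 to E18.5 differed for Chrng in a moderated F test in limma (adjusted p = 0.012), a test that called 48.6% of all genes. A second probe set of the gene had stage means of 52.9, 105, 155 and 107 over the same 4 stages, with the same order, whereas the remaining one had 17.7, 11, 40.5 and 15.5.

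Chrnd and Chrne were not tested, since neither was above the array median on 2 arrays. Chrnd, the delta chain, had 12.9 and 18.2 at E12.5, 36.8 and 17.3 at E14.5, 31.2 and 69.2 at E16.5, and 112 and 47.9 at E18.5, so the arrays of E18.5 lay above those of E12.5 but differed from each other. Without the filter on low signals its change for E18.5 against E12.5 was 1.29 ± 0.37 (SE, limma adjusted p = 0.008). Chrne, the adult epsilon chain, lay between 1.97 and 11.8 on the 20 arrays, below the 25th percentile of each of them.

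The bases before the start of these genes are shown because myogenic factors bind E-boxes. Whether the subunits differ in when they appear was not tested. RefSeq promoter windows of GRCm38.p6 were present for 52 of the 69 genes, and for Chrna1, Chrnb1, Chrng and Chrne among the muscle subunits. Each window is the 250 bases before the start that the table gives, on the strand of the gene, which is the minus strand but for Chrng.
Chrna1 chr2:73580339-73580588: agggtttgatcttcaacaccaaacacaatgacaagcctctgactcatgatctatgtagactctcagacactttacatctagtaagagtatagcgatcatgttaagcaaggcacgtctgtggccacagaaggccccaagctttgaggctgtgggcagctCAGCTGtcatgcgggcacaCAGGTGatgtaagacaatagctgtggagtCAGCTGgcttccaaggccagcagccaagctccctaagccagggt
Chrnb1 chr11:69795938-69796187: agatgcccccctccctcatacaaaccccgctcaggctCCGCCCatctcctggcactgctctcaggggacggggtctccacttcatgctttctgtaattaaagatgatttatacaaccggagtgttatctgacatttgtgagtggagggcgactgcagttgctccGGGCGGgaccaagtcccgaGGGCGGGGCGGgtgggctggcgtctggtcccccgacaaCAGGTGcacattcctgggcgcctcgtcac
Chrng chr1:87205561-87205810: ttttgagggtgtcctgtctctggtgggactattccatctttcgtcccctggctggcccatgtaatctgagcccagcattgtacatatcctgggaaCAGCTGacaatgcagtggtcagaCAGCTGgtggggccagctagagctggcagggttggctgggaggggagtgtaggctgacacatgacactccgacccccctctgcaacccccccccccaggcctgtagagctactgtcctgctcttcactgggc
Chrne chr11:70619195-70619444: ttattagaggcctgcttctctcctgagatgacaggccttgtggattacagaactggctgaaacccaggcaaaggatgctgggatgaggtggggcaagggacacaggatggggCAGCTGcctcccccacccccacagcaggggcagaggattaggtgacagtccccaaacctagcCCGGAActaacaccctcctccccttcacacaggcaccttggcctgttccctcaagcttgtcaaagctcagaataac
Capitals mark the E-boxes CAGCTG and CAGGTG or its complement CACCTG, the GC box GGGCGG or CCGCCC, and the N-box CCGGAA or TTCCGG, searched on both strands. CAGCTG occurred in 13%, CAGGTG or CACCTG in 17.2%, the GC box in 32.7% and the N-box in 12% of the 32851 windows in the table. The Chrna1 window held CAGCTG 92 and 44 bases before the start and CAGGTG at 73, and the Chrng window held CAGCTG at 155 and 132. The Chrnb1 window held CAGGTG at 29 and 4 GC boxes, of which the pair at 67 and 62 overlap by a base. The RefSeq gene annotation starts Chrnb1 at 69795966 and Chrne at 70619213, which lie inside their windows. By that annotation the Chrnb1 CAGGTG is within the gene and not before its start. The Chrne window held CAGCTG at 138 and the N-box CCGGAA at 76, a motif known from genes of the subsynaptic nuclei of muscle. A match describes the letters and not a bound site.

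Chrna1, Chrnb1 and Chrng were called for E12.5 against E10.5, across the array sets, at 1.97 ± 0.34, 2.14 ± 0.26 and 1.62 ± 0.32 (SE, limma adjusted p = 1e-04, 1.8e-06 and 0.00039). For E18.5 against E12.5, within the later set, their changes were 0.64 ± 0.37, 0.68 ± 0.28 and 0.84 ± 0.35 (SE, limma adjusted p = 0.16, 0.051 and 0.053), and none was called. Over the same comparison 13 of 16 skeletal muscle genes rose with a median change of 3.56, among them Ckm, the muscle creatine kinase (8.29), and Myh8, the perinatal myosin heavy chain (6.42). Of 8 tested genes of the neuromuscular junction, a list that holds the receptor-clustering proteins Musk and Rapsn, 0 were called in limma (at an unadjusted p below 0.05, 0 were higher and 1 lower), and their median change was 0.25. The summed signal of that list was 3930 to 4040 at E18.5 and 4860 to 4980 at E12.5. Within it Agrn had 1400 at E18.5 and 2740 at E12.5, and Chat and Slc18a3 were also lower at E18.5. The stage means of Musk, Rapsn, Dok7, Lrp4, Ache, Colq and Utrn were higher at E18.5, so the lower sum does not describe most of the list. For E12.5 against E10.5, 11 of 16 muscle genes rose (median 1.48) and 2 of 8 junction genes, Musk (1.82) and Rapsn (1.41). The part of the share of muscle in these values was not tested.

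**Figure D2:**
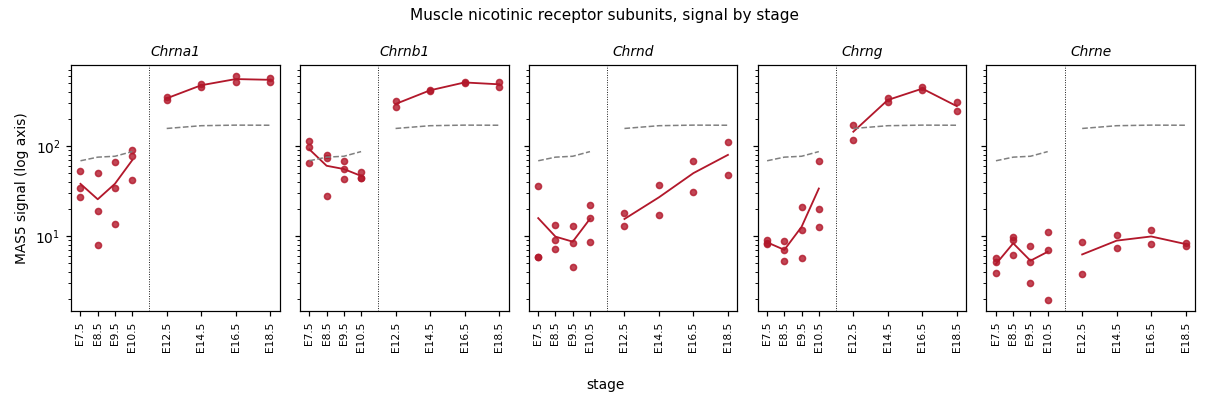
MAS5 signal (log axis) of the 5 muscle nicotinic subunits by stage. Points are arrays, lines join stage means within each array set, the dotted vertical line parts the 2 sets and the dashed grey line is the median signal of the arrays. Chrne stays at 11.8 or below, while Chrng is highest at E16.5 with 421 and 448.

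For E10.5 against E7.5, 9 of the 36 tested subunits rose (25%, against 16.0% of all genes tested) and 1 fell (2.78%, against 7.49%). The median change of the 36 was 0.50, and that of all genes tested was 0.11. Over all 69 genes, with no filter, 11 rose (15.9%, against 12.8% of all genes without a filter) and 1 fell (1.45%, against 5.90%). After quantile normalization 4 of the 36 rose and 4 fell, with the calls of Chrna4, Chrna7, Gabra3, Gabrb1 and Grm4 lost, and after scaling by the 75th percentile 7 rose and 2 fell. With a pseudocount 4 times larger 2 rose, Chrna3 and Gabrp, and 0 fell. Of the classes, neuronal nicotinic genes had 3 of 7 called up and GABA-A genes 4 of 8, glycine and metabotropic glutamate genes 1 each, and AMPA, NMDA, kainate and serotonin genes 0 in limma. At an unadjusted p below 0.05, 3 of 3 AMPA genes and 1 of 3 kainate genes were higher, and 0 of the 3 NMDA and 0 of the 3 serotonin genes.

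Chrna3, the alpha3 chain of the nicotinic receptor of autonomic ganglia, had the largest rise among the subunits. It had 319, 292 and 263 at E10.5, against 56.6, 22.1 and 31.8 at E7.5, a change of 2.37 ± 0.22 (SE, limma adjusted p = 1.7e-08), or 5.18-fold. The signals of the stages between were 65.0, 58.6 and 65.0 at E8.5 and 137, 96.8 and 90.8 at E9.5. No E10.5 array overlapped those of any earlier stage, and a second probe set had stage means of 34.8, 37.8, 145 and 281 over the 4 stages. The remaining one stayed between 22.1 and 37.4.

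The other nicotinic genes called were Chrna4 and Chrna7. Chrna4, the alpha4 chain of the main nicotinic receptor of the brain, had 218, 218 and 160 at E10.5, against 68.6, 61.1 and 53.9 at E7.5, a change of 1.36 ± 0.22 (SE, limma adjusted p = 2e-05). Chrna7, which forms calcium-permeable receptors of alpha7 chains, had 318, 327 and 324 at E10.5, against 139, 111 and 130 at E7.5, a change of 1.2 ± 0.13 (SE, limma adjusted p = 1.8e-07). On this probe set the rise was complete at E8.5, with 321, 318 and 348. A second probe set of the gene had stage means of 14.6, 52.7, 114 and 98.4 over E7.5 to E10.5, so it rose further after E8.5. The neuronal marker sum at E8.5 overlapped that of E7.5 (3240 to 3850 at E8.5, against 3530 to 3840 at E7.5). Other marker sums differed between these stages. Neural progenitor genes summed to 5880 to 6930 at E8.5, against 2790 to 3530 at E7.5, glial genes to 1450 to 1580, against 512 to 871, and genes of sensory and autonomic neurons to 2910 to 3020, against 1280 to 1510. Genes of extraembryonic endoderm and trophoblast summed to 32100 to 34500 at E8.5, against 116000 to 131000 at E7.5. The part of these in the Chrna7 signal was not tested.

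The GABA-A genes that rose were 2 beta chains, the pi chain and an alpha chain. Gabrb2 had 143, 113 and 117 at E10.5, against 3.46, 20.3 and 22.5 at E7.5, a change of 1.89 ± 0.26 (SE, limma adjusted p = 2.6e-06). Gabrp, the pi chain, known from the uterus and other epithelia more than from brain, had 229, 287 and 354 at E10.5, against 55.3, 41.4 and 69.6 at E7.5, a change of 1.95 ± 0.32 (SE, limma adjusted p = 2.3e-05). Neither gene had overlapping arrays. Gabra3, an alpha chain of the immature brain, had 141, 136 and 121 at E10.5, against 76.8, 50.5 and 34.1 at E7.5, and its change of 1.02 fell to 0.84 without E7.5 replicate 3 and to 0.99 without E10.5 replicate 1, under the 2-fold limit. The other Gabra3 probe set had stage means of 93.5 at E10.5 and 66.8 at E7.5. With the mean of all probe sets the change was 0.74, and the call was lost. Gabrb1, another beta chain, had 47.8, 51.3 and 54.7 at E10.5, against 10.3, 4.65 and 25.5 at E7.5, and its change of 1.00 was 0.96, 0.84 and 0.97 without E7.5 replicate 1, E7.5 replicate 2 and E10.5 replicate 3.

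Glrb, the beta chain that anchors glycine receptors to gephyrin, had 104, 201 and 171 at E10.5, against 1.43, 36.8 and 46.1 at E7.5, a change of 1.85 ± 0.34 (SE, limma adjusted p = 1e-04). Its probe set may cross-hybridise by its name, but a second one had stage means of 22.9, 28.6, 76.2 and 141 over E7.5 to E10.5. Grm4, a G protein-coupled glutamate receptor of presynaptic endings, had 115, 173 and 217 at E10.5, against 31.7, 90.2 and 51.3 at E7.5, a change of 1.24 ± 0.30 (SE, limma adjusted p = 0.0013), which dropped to 1.00, with the call lost, without E7.5 replicate 1. Glra1 (1.25) and Grm2 (1.32) were the genes added without the filter.

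Grik3, a kainate receptor chain, was the subunit that fell. It had 29.4, 51.2 and 37.6 at E10.5, against 130, 112 and 138 at E7.5, a change of -1.24 ± 0.23 (SE, limma adjusted p = 1e-04), and was at 32.8, 59.3 and 63.7 by E8.5. The other probe set of the gene had stage means of 2.93 to 12.1 throughout and did not show the fall. The summed signal of 12 genes of extraembryonic endoderm and trophoblast was 9180 to 10800 at E10.5 and 116000 to 131000 at E7.5, and 11 of the 12 fell. Their part in the fall of Grik3 was not tested. The count of falls was 3 without E7.5 replicate 1, and 2 without E7.5 replicate 3, E10.5 replicate 1 or E10.5 replicate 3.

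Over the same comparison 15 of 15 neuronal genes rose with a median of 2.79, including Dcx, a microtubule protein of migrating neurons (6.07), and Elavl4, a neuronal RNA-binding protein (5.19). Of 20 postsynaptic scaffold and accessory genes 6 rose and 1 fell (median 0.52), among the risers Cacng4, an AMPA receptor auxiliary protein (2.07), and Homer3, a scaffold of metabotropic receptors (1.91). Of 11 genes of transmitter synthesis and transport 5 rose and 3 fell (median 0.96), led by the vesicular glutamate transporter Slc17a6 (3.01) and the glial glutamate transporter Slc1a2 (2.40). All 9 neural progenitor genes rose (median 3.37), as did 5 of 7 genes of sensory and autonomic neurons (median 1.34) and 3 of 7 glial genes (median 0.96). The 8 genes of sensory and autonomic neurons, the lineage in whose ganglia Chrna3 is known, summed to 4440 to 4670 at E10.5, against 1280 to 1510 at E7.5. The part of the number of neurons and of these cells in the subunit changes was not tested.

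**Figure D3:**
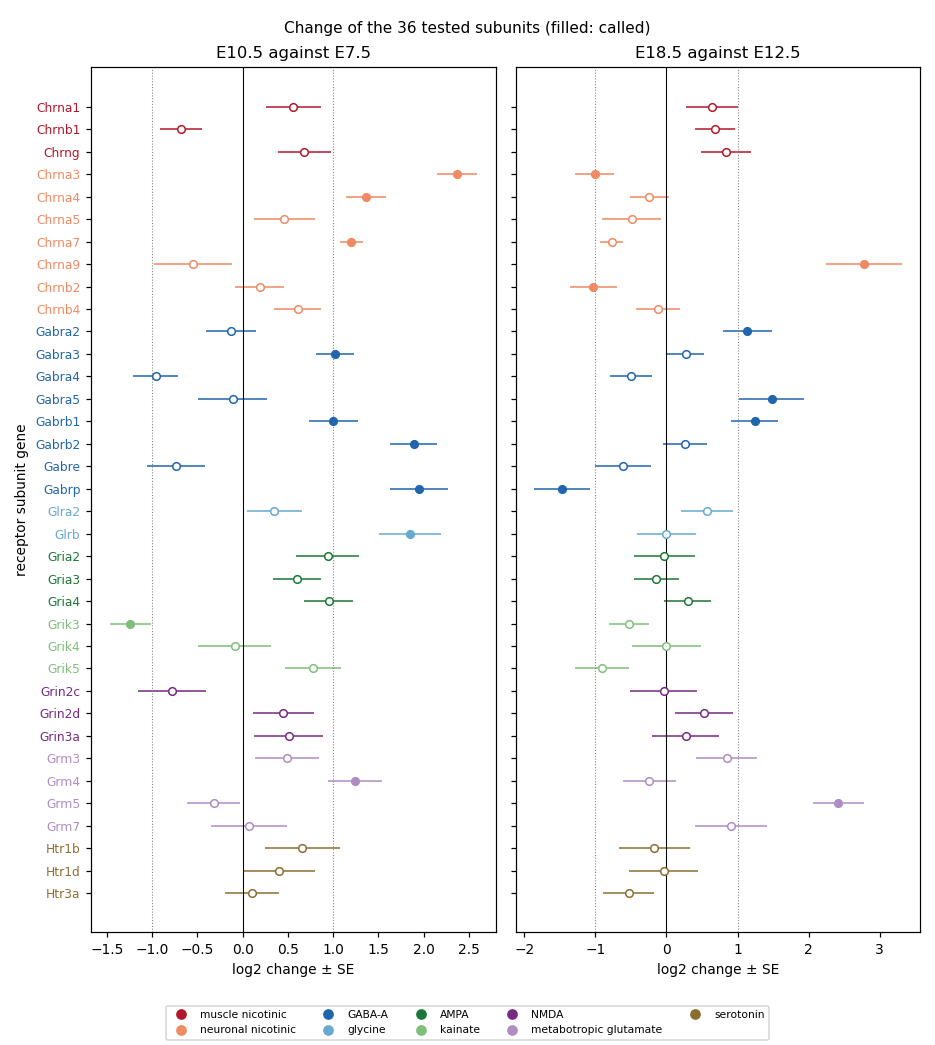
Change of the 36 tested subunits with its SE, for E10.5 against E7.5 (left) and E18.5 against E12.5 (right), coloured by receptor class. Filled points were called and dotted lines mark a 2-fold change. On the left 9 filled points lie to the right and 1 to the left, and on the right 5 and 3.

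An F test among the 4 stages from E7.5 to E10.5 called 16 of the 36 subunits (44.4%), against 60.9% of all genes. Over all 69 without the filter it called 20 (29%, against 47.4%), and fitted on the arrays of these stages alone 12 of the 36 (33.3%, against 55.1%). The highest stage was E10.5 for 11 of the 16, E7.5 and E9.5 for 2 each and E8.5 for 1. Chrna5, the accessory alpha5 chain, had its highest mean at E10.5 (74.3, 94.6 and 69.6) and its lowest mean at E8.5 (5.51, 10.3 and 6.36), with an adjusted p of 0.0012 in limma. Its E9.5 signals of 41.2, 2.58 and 28 overlapped those of E8.5. At E7.5 it had 30.3, 35.9 and 101, so the change from E7.5 was not called (0.46 ± 0.34). On the probe set used, Chrna7 was the gene whose highest mean lay at E8.5. Grik3 and Gabra4, an alpha chain whose signals were 45.9, 55.6 and 79.1 at E10.5 and 131, 133 and 156 at E7.5, were highest at E7.5.

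For E18.5 against E12.5, 5 of the 36 tested subunits rose (13.9%, against 15.2% of all genes tested) and 3 fell (8.33%, against 6.44%). The median change was -0.02, and that of all genes tested was -0.09. Over all 69 genes, with no filter, 9 rose (13%, against 13.9%) and 4 fell (5.8%, against 5.15%). These shares were near the background. Over the same comparison 0 of 15 neuronal genes rose and 6 fell in limma, with a median of -0.87 (0 higher and 12 lower at an unadjusted p below 0.05). Of 20 postsynaptic genes 0 rose and 3 fell in limma, with a median of -0.36 (1 higher and 8 lower at an unadjusted p below 0.05). Without E12.5 replicate 2 or without E18.5 replicate 1 the count of rises was 3, and without E12.5 replicate 1 or E18.5 replicate 1 the count of falls was 1. Quantile normalization gave 4 rises and 4 falls, scaling by the 75th percentile 5 and 1, and a pseudocount 4 times larger 2 and 1.

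Chrna9, the alpha9 chain known from cochlear hair cells, had the largest change. It had 204 and 191 at E18.5, against 4.85 and 8.74 at E12.5, a change of 2.78 ± 0.53 (SE, limma adjusted p = 0.00017), or 6.85-fold. The arrays of E14.5 (14.8 and 9.51) and E16.5 (8.89 and 38.1) stayed low, so the rise lay in the last interval. Chrna9 exceeded the array's median on the 2 E18.5 arrays and 1 E7.5 array, and passed the filter through these. The remaining probe sets of the gene had stage means of 26.1 and 24.5 at E18.5 and did not show it. For E18.5 against E12.5 all 9 epidermal genes tested rose, led by the keratins Krt1 (7.54) and Krt10 (5.83). Their summed signal was 2840 to 2910 at E12.5, 8110 to 8540 at E14.5, 54600 to 70100 at E16.5 and 89000 to 92000 at E18.5. The part of epidermis in the Chrna9 signal was not tested.

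Grm5, the G protein-coupled glutamate receptor known for its role in postsynaptic plasticity, had 312 and 375 at E18.5, against 47.9 and 38.4 at E12.5, a change of 2.42 ± 0.36 (SE, limma adjusted p = 1.2e-05). It reached 281 and 250 at E14.5 and 324 and 325 at E16.5, so most of the rise lay in the first interval. A second probe set had stage means of 19.9, 80.2, 118 and 153 over the 4 stages. Of the other metabotropic genes tested, Grm3, Grm4 and Grm7 changed by 0.85, -0.24 and 0.91, with no call.

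GABA-A genes made up 3 of the 5 rises. Gabra5, the alpha5 chain known from extrasynaptic receptors of the hippocampus, had 188 and 176 at E18.5, against 61.8 and 37.8 at E12.5, a change of 1.48 ± 0.46 (SE, limma adjusted p = 0.011). It exceeded the array's median only on the 2 E18.5 arrays, so it passed the filter only through them and had no test without either of them. Gabrb1 had 208 and 223 at E18.5, against 64.8 and 89.0 at E12.5, a change of 1.24 ± 0.33 (SE, limma adjusted p = 0.0039). Gabra2, an alpha chain common in the developing brain, had 253 and 247 at E18.5, against 117 and 83.1 at E12.5, a change of 1.14 ± 0.35 (SE, limma adjusted p = 0.0092). Without E12.5 replicate 2 the calls of Gabra5 (1.24, limma adjusted p = 0.092) and Gabra2 (0.95, limma adjusted p = 0.089) were lost, and that of Gabra2 also without E18.5 replicate 1 (1.13, limma adjusted p = 0.053). On the probe sets used, Gabrb1 was the single subunit called as rising in both comparisons within an array set. Its rise for E10.5 against E7.5 was 2.01-fold, at the limit, and that call was lost in 6 of 15 alternatives. Of the other Gabrb1 probe sets, one had stage means of 23.5 at E7.5 and 22 at E10.5 and did not show this rise. The others had 7.17 and 33.3 at E10.5, each higher than at E7.5.

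Gabrp, Chrna3 and Chrnb2 fell. Gabrp had 222 and 214 at E18.5, against 596 and 707 at E12.5, a change of -1.47 ± 0.39 (SE, limma adjusted p = 0.0034), and its lowest signals in the later set were 166 and 147 at E16.5. The second probe set of the gene had stage means of 183 at E18.5 and 523 at E12.5. Chrna3 had 82.4 and 120 at E18.5, against 254 and 202 at E12.5, a change of -1.01 ± 0.27 (SE, limma adjusted p = 0.0042), and the E14.5 arrays were already at 116 and 99.8. Chrnb2, the beta2 chain that pairs with alpha4, had 103 and 124 at E18.5, against 267 and 248 at E12.5, a change of -1.03 ± 0.33 (SE, limma adjusted p = 0.012). Without E12.5 replicate 1 the changes of Chrna3 and Chrnb2 were -0.86 and -0.98, and without E18.5 replicate 1 they were -0.80 and -0.92, with both calls lost.

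Beside the falls of Chrna3 and Chrnb2, 3 of 7 genes of sensory and autonomic neurons fell (median -0.38), among them Isl1 (-2.09) and Hand2 (-1.94), transcription factors of those lineages. From E12.5 to E18.5 the stage means of Prph (377 to 409), Ret (221 to 228) and Scn10a (23.3 to 36.3) did not fall. Those of Pou4f1, Phox2a and Dbh did. The summed signal of 8 such genes was 1800 to 1900 at E18.5 and 4580 to 4660 at E12.5, where Isl1 and Hand2 alone had 1750 and 1370. The part of these genes in the result was not tested. The F test among E12.5 to E18.5 called 8 subunits (22.2%, against 48.6% of all genes), namely Chrna3, Chrna7, Chrna9, Chrng, Gabra2, Gabrb1, Gabrp and Grm5, and 5 without E12.5 replicate 1. Over all 69 without the filter it called 12 (17.4%, against 38.5%). With the later array set fitted by itself, it called 19 of the 36 (52.8%, against 63.1%), and with a pseudocount 4 times larger 15, so the size of this count depended on the fit and the scale. Chrna7 was lowest at E18.5 (124 and 143) and highest at E12.5 (240 and 253), and its change of -0.77 ± 0.16 did not reach 2-fold.

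**Figure D4:**
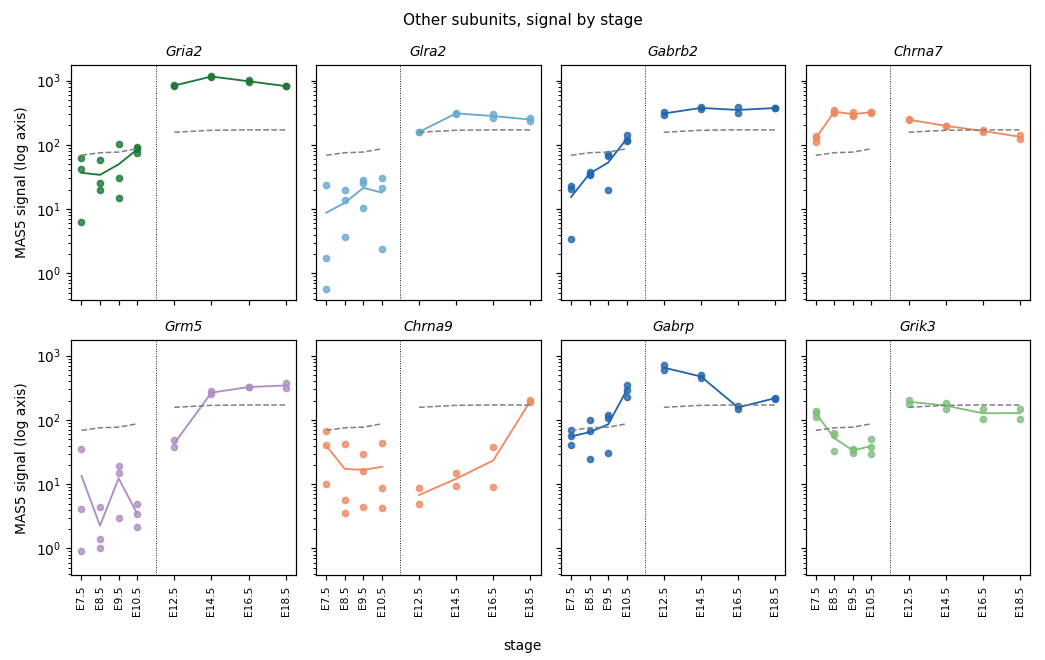
MAS5 signal (log axis) by stage of 8 subunits outside muscle. Points are arrays, lines join stage means within each array set, the dotted vertical line parts the sets and the dashed grey line is the median signal of the arrays. Chrna9 leaves the low range at E18.5 alone (204 and 191), Grm5 between E12.5 and E14.5, and Chrna7 between E7.5 and E8.5.

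The step from E10.5 to E12.5 crosses the array sets. In this step 18 of the 36 subunits rose (50%, against 10.6% of all genes tested) and 0 fell (against 2.02%) in limma, with a median of 1.07 beside 0.12 for all genes tested. At an unadjusted p below 0.05, 21 were higher and 1 lower. Over all 69 genes, without the filter, 20 rose (29.0%, against 9.21%) and 0 fell (against 1.63%). After quantile normalization, under which the median of all genes was -0.11, 9 rose and 1 fell, and the calls of Chrnb2, Gabra2, Gabra4, Gabrb2, Gabrp, Gria4, Grin3a, Grm5 and Grm7 were lost. All 3 AMPA genes tested, 5 of 8 GABA-A genes, 3 of 4 metabotropic glutamate genes and all 3 muscle nicotinic genes tested were called, but 1 of 7 neuronal nicotinic genes and 0 of 3 serotonin genes in limma (1 of the 3 at an unadjusted p below 0.05).

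The AMPA chains carry most fast excitation in the brain. Gria2, whose edited chain makes the channel impermeable to calcium, had 830 and 844 at E12.5, against 75.6, 85.0 and 94.2 at E10.5, a change of 2.96 ± 0.39 (SE, limma adjusted p = 5.3e-06). Gria3 had 312 and 264 at E12.5, against 47.1, 93.0 and 40.2 at E10.5 (1.91 ± 0.30, limma adjusted p = 2.9e-05), and Gria4 had 356 and 340, against 94.9, 134 and 79.2 (1.56 ± 0.30, limma adjusted p = 0.00029). Of the remaining Gria4 probe sets, one had stage means of 80.3 at E10.5 and 90.3 at E12.5, and the other 53.9 and 214. The second Gria3 probe set had 69 and 117. With the mean of all probe sets the changes were 1.27 for Gria3 and 1.09 for Gria4, and both calls held. Within the earlier set the Gria2, Gria3 and Gria4 changes for E10.5 against E7.5 were 0.94, 0.60 and 0.95, and within the later set for E18.5 against E12.5 they were -0.03, -0.14 and 0.30, with no call. Gria2 had its highest signals at E14.5, 1130 and 1180. Gria1 was not tested and was highest at E14.5 with 189 and 150.

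Among the inhibitory receptors, Glra2, the embryonic alpha chain of the glycine receptor, had 158 and 159 at E12.5, against 21.3, 30.4 and 2.42 at E10.5, a change of 2.13 ± 0.34 (SE, limma adjusted p = 3.9e-05). Gabre, the epsilon chain, had 146 and 173 at E12.5, against 29.0, 24.8 and 22.4 at E10.5 (1.85 ± 0.36, limma adjusted p = 0.00028). Gabra2 had 117 and 83.1 at E12.5, against 23.0, 28.8 and 10.8 at E10.5 (1.44 ± 0.32, limma adjusted p = 0.001), and Gabra4 had 172 and 167, against 45.9, 55.6 and 79.1 (1.2 ± 0.28, limma adjusted p = 0.0014). Gabrb2 and Gabrp, called earlier too, rose by 1.15 and 1.12. Gabrp lost its call without E10.5 replicate 1 (0.97) and without E12.5 replicate 2 (1.00).

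Of the other glutamate receptors, Grm7 had 104 and 138 at E12.5, against 6.94, 3.88 and 44.2 at E10.5 (1.83 ± 0.46, limma adjusted p = 0.0031), and Grm3 had 113 and 122, against 5.24, 49.5 and 7.68 (1.74 ± 0.39, limma adjusted p = 0.0012). Both are G protein-coupled receptors that dampen transmitter release. Of the remaining Grm7 probe sets, one had stage means of 14.8 at E10.5 and 15.4 at E12.5 and did not show the step. The other had 9.34 and 46.4. Grm5 had 47.9 and 38.4 at E12.5, against 3.40, 2.13 and 4.92 at E10.5, a change of 1.23 ± 0.33 (SE, limma adjusted p = 0.0045) that lost its call without E12.5 replicate 1 (1.13, limma adjusted p = 0.05). Grik3 had 206 and 178 at E12.5, against 29.4, 51.2 and 37.6 at E10.5, a change of 1.75 ± 0.26 (SE, limma adjusted p = 1.6e-05). The other Grik3 probe set had stage means of 12.1 at E10.5 and 4.91 at E12.5 and did not show the step. Grin3a, an NMDA chain that lowers calcium entry, had 130 and 112 at E12.5, against 2.45, 83.2 and 44.3 at E10.5 (1.29 ± 0.43, limma adjusted p = 0.018). Its call was lost without E10.5 replicate 1 (0.75) and without E12.5 replicate 1 (1.2) or 2 (1.38). Chrnb2 had 267 and 248 at E12.5, against 97.3, 29.6 and 108 at E10.5, a change of 1.54 ± 0.30 (SE, limma adjusted p = 0.00028).

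In this step 5 of 15 neuronal genes rose (median 0.71), and 6 of 11 genes of transmitter synthesis and transport (median 1.11), led by the GABA-making enzymes Gad1 (3.12) and Gad2 (2.15). Of 20 postsynaptic genes 5 rose (median 0.68), led by Cacng2 (2.30) and Cacng7 (1.76), auxiliary proteins of AMPA receptors. The part of neuron number and of the array set in these changes cannot be told apart.

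Several subunit genes are neighbours on a chromosome in the RefSeq annotation, and their courses were set side by side. Chrna5, Chrna3 and Chrnb4 are consecutive on chromosome 9, and their chains form the ganglionic receptor. On the probe sets used, all 3 had their highest stage mean at E10.5, with 79.5 ± 13.3 for Chrna5, 291 ± 28.3 for Chrna3 and 101 ± 31.7 for Chrnb4 (SD, n = 3). The other Chrnb4 probe set had stage means of 76.2, 52.2, 79.5 and 69 over E7.5 to E10.5. That of Chrna5 had 49.3 at E10.5 and was highest at E12.5 (65.3). A second Chrna3 probe set was also highest at E10.5 (281), and the remaining one at E12.5 (62.6). The shared peak thus depended on the probe set. Chrna3 was called for E10.5 against E7.5, but Chrnb4 changed by 0.61 ± 0.26 and Chrna5 by 0.46 ± 0.34, without a call. The 250 bases before Chrna3, on the minus strand, are shown as those of the member of the cluster that rose, with its GC box 13 bases before the start in capitals.
Chrna3 chr9:55026563-55026812: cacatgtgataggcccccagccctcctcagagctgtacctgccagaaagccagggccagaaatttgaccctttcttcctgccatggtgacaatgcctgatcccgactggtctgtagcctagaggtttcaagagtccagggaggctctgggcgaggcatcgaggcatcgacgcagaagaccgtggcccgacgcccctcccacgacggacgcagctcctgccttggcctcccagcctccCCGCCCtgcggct
It held no E-box or N-box of the letters searched.

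A group of GABA-A genes lies on chromosome 5 in the order Gabrg1, Gabra2, Gabra4 and Gabrb1, with 1 coding gene between Gabra2 and Gabra4. From E12.5 to E18.5 Gabra2 and Gabrb1 rose, as given above, and Gabrg1 had 26.2 and 25 at E12.5, 59.1 and 96.3 at E14.5, 120 and 90.9 at E16.5, and 143 and 133 at E18.5. Gabrg1 was not tested, and without the filter its change for E18.5 against E12.5 was 1.67 ± 0.41 (SE, limma adjusted p = 0.0024). Gabra4, between them, had 109 and 116 at E18.5 and 172 and 167 at E12.5, a change of -0.50 ± 0.30 with no call. Whether Gabra4 differs from its neighbours was not tested. Chrnd and Chrng are consecutive on chromosome 1, with the courses given above, and a difference between them was not tested. Gria2 and Glrb are neighbours on chromosome 3.

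**Figure D5:**
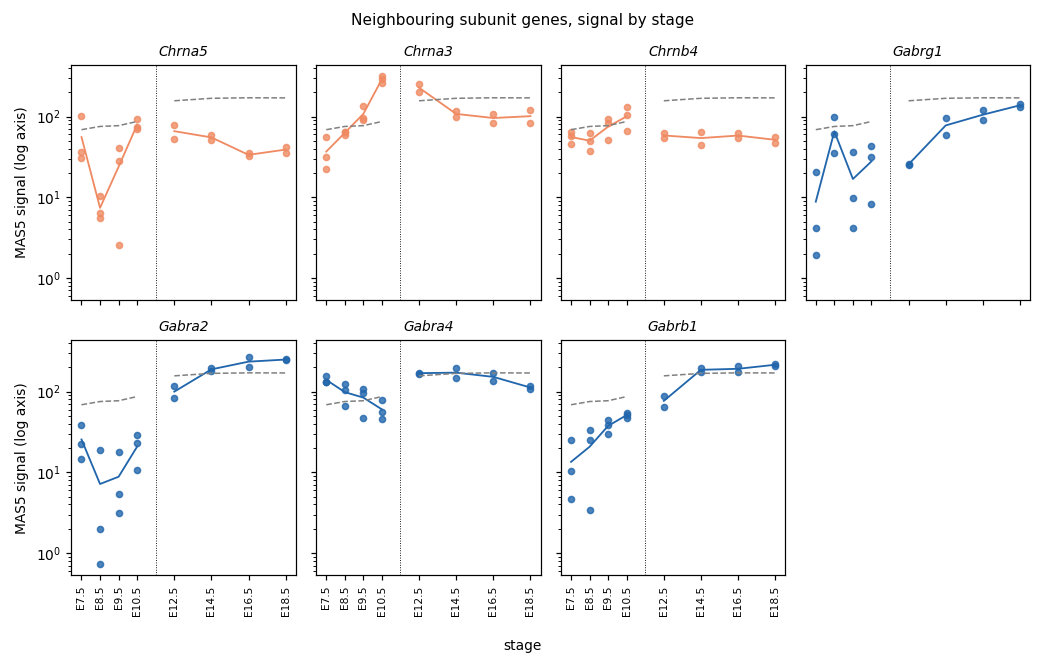
MAS5 signal (log axis) by stage of 3 nicotinic genes consecutive on chromosome 9 (Chrna5, Chrna3, Chrnb4) and 4 GABA-A genes on chromosome 5 (Gabrg1, Gabra2, Gabra4, Gabrb1). Points are arrays and lines join stage means within each array set. Gabra4 is at 109 and 116 at E18.5 and at 172 and 167 at E12.5, while the other GABA-A genes shown are higher at E18.5.

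Of the subunits known to exchange in development, 4 pairs were compared within the later array set, as the difference of the late and the early subunit on each array, averaged over the 4 arrays of E16.5 and E18.5 and over the 4 of E12.5 and E14.5. With 70 splits of the arrays an exact two-sided permutation test cannot go below p = 0.029, which over 4 pairs leaves 0.11 for a pair that alone reaches it. The levels of the 2 subunits of a pair were not read against each other, only the change of their difference. Grin2c minus Grin2d, chains of cerebellar and of early brainstem NMDA receptors, changed by -0.55 (exact permutation p = 0.029, adjusted p = 0.11 over 4 pairs). Grin2c lay between 8.87 and 13.7 on these 8 arrays, so the change of the difference was nearly that of Grin2d, which had 203 and 184 at E18.5, against 141 and 111 at E12.5. Chrne minus Chrng changed by -0.55 (exact permutation p = 0.17, adjusted p = 0.34), Glra1 minus Glra2 by -0.47 (exact permutation p = 0.43, adjusted p = 0.57) and Grin2a minus Grin2b by -0.03 (exact permutation p = 0.94, adjusted p = 0.94). Chrne, Grin2a, Grin2c and Glra1 were at or below 45.2 on all 8 arrays, a range in which the pseudocount compresses changes.

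Grin2b, the juvenile NMDA chain, was not tested in the fit, and had 82.4 and 78.9 at E12.5, 151 and 105 at E14.5, 101 and 112 at E16.5, and 119 and 95.6 at E18.5. Grin2a, its adult counterpart, had 13.6 and 14.1, 30.2 and 24.1, 22.3 and 42.2, and 3.33 and 24.0 at the same stages. The Grin2b arrays of E18.5 lay above those of E12.5, and the Grin2a arrays overlapped. Glra1, the adult glycine alpha chain, had 45.2 and 36 at E12.5, 4.44 and 19.2 at E14.5, 22.4 and 1.49 at E16.5, and 19.2 and 24.5 at E18.5.

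Of the 33 subunits not tested, 10 were serotonin receptors. The highest stage means among these were 108 for Htr2c at E18.5, 107 for Htr7 and 101 for Htr1a at E16.5, and 27.5 to 59.2 for Htr1f, Htr2b, Htr3b, Htr4, Htr5a, Htr5b and Htr6. The tested serotonin genes Htr1b, Htr1d and Htr3a were not called in any of the 3 comparisons. The F test among E7.5 to E10.5 called Htr1d (limma adjusted p = 0.019), with its lowest mean at E8.5 and its highest at E10.5. Fitted on the arrays of these stages alone, it did not call Htr1d. Htr3a, the subunit of the serotonin-gated channel, had its highest stage means at E14.5 and E16.5 (156 and 282, 203 and 276). The E12.5 arrays had 170 and 178, so those of E14.5 lay on both sides of them. The F test among E12.5 to E18.5 did not call Htr3a (limma adjusted p = 0.15), but called it with the later array set fitted by itself. Without the filter, Htr2b, known from the developing heart and gut, was called for E18.5 against E12.5 (1.5 ± 0.40, limma adjusted p = 0.0041), and Htr2c, of the choroid plexus and brain, for E12.5 against E10.5 (1.28 ± 0.32, limma adjusted p = 0.0036).

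The other untested GABA-A genes had highest stage means of 21.6 for Gabra6, 52.3 for Gabrd, 36 for Gabrg3, 46.0 for Gabrq, 35.4 for Gabrr1 and 59.1 for Gabrr2. Those of the nicotinic genes Chrna2, Chrna6 and Chrnb3 were 26.0, 79.9 and 47.7, and those of the glycine genes Glra1, Glra3 and Glra4 were 47.1, 59.6 and 28.0. Among glutamate receptors they were 169 for Gria1, 148 for Grik1, 118 for Grik2, 37.7 for Grin2a, 128 for Grin2b, 39.2 for Grin3b, 71.4 for Grm2 and 67.2 for Grm8. Glra3 (1.22) rose and Grm2 (-1.04) fell for E18.5 against E12.5 without the filter, and Grik1 rose by 1.11 for E12.5 against E10.5. Grm2, a presynaptic receptor, had 126, 51.2 and 35.8 at E10.5 and at most 15.9 on any array before. A gene left out by the filter is not shown to be absent.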

How the data were processed

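The authors deposited 1 intensity per probe set and array, a MAS5 signal on a linear scale, per the submitters' processing notes, with the MAS5 version not given in the sources used here. The mean without the lowest and highest 2% of values was 500.0 on every array, so the deposited intensities had been scaled to it, and no further normalization was applied. Arrays give no count depth.

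Of 45101 probe sets, the 34958 with a single gene symbol in the platform annotation were used. A gene was represented by its probe set with the highest mean log2 value, and all 69 subunits matched a RefSeq gene table. Values were analysed as log2(signal + 25.9), where 25.9 is the median of the 20 arrays' 25th percentiles. A stage-means model of all 20 arrays was fitted with limma 3.58.1 (R 4.3.3, 12 residual degrees of freedom, eBayes with trend, two-sided tests, Benjamini-Hochberg over 14045 genes), and the script was tested on simulated data. The fit pools the spread over stages, so stages with 2 arrays are assumed to vary like the others.

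Values are given in full for the muscle subunits, for both members of each pair and for at most the 3 largest calls of a class in a comparison; other calls are named with their change and untested subunits with their highest stage mean. Of the marker lists, the 2 called genes with the largest change were named. Musk, Rapsn, other genes of the junction and of the sensory and autonomic lists, and members singled out by position or peak were also named. Apart from Musk and Rapsn, these were chosen after their values were seen. The members, gene lists and tests were chosen with earlier results of these data known. The alternatives were another normalization, pseudocount, filter, probe-set rule, choice of arrays or fold limit, a replicate block, and each array left out. Of 6 pairs planned, 4 were analysed and the others are not reported here.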

Additional observations from a re-analysis of the deposited data

How the results depend on the processing

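Counts of called subunits moved with several choices. The first comparison is E10.5 against E7.5, the second is E18.5 against E12.5 and the last is E12.5 against E10.5. Quantile normalization gave 4 rises and 4 falls in the first and 9 rises and 1 fall in the last. Scaling by the 75th percentile gave 2 falls in the first and 1 fall in the second. A pseudocount 4 times smaller gave 2 falls in the first, 3 rises in the second and 5 calls in the F test among E12.5 to E18.5. A pseudocount 4 times larger gave 2 rises and 0 falls, 2 rises and 1 fall, 9 rises, and 15 calls in that F test. Without the filter the second had 9 rises, since more genes were tested. A filter at the 75th percentile left 3 subunits tested and gave 1 rise and 0 falls, 0 rises and 1 fall, 3 rises, and 1 call in each F test. The mean of all probe sets gave 0 falls in the first, 2 rises and 1 fall in the second, 11 rises in the last and 4 calls in the later F test. Fitting the arrays of the stages alone gave 19 calls in the later F test, and dropping the minimum fold gave 3 falls in the first comparison. Apart from the stated construction, the cause was not tested.

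Leaving out each array in turn gave 8 to 11 rises and 1 to 3 falls in the first comparison, 3 to 5 rises and 1 to 4 falls in the second, 16 to 18 rises and 0 falls in the last, and 14 to 20 and 5 to 8 calls in the 2 F tests. The pair Grin2a minus Grin2b turned to 0.02 after quantile normalization and to 0.06 with the mean of all probe sets, and ranged from -0.19 to 0.24 over the arrays left out. The calls of Chrna3 and Gabrp in the first comparison, of Chrna9, Gabrp and Grm5 in the second, and of Chrna1, Chrnb1, Gabre, Glra2, Gria2, Gria3 and Grik3 in the last held in every alternative that gave them a value. For Chrna9 and Grik3 the mean of all probe sets gave no value, so their calls rest on the probe set used. The remaining probe sets of these genes did not show the rises. Of the values of named genes under other settings, 343 kept their side of the threshold, 50 lost it and 2 gained it, and with arrays left out 191 kept it and 19 lost it, none with a changed sign. With the replicate number as a block the counts were 9 rises and 1 fall, 5 and 3, 18 and 0, and 17 and 8 in the F tests. For deviations from the stage mean, correlations of same-numbered arrays of the compared stages were -0.01 to 0.14. Where a stage had 2 arrays, their deviations mirror each other, so both numbers gave the same value. At every stage of the earlier set, replicate 1 had the lowest median signal (67.2, 69, 67.5 and 79.9 in order of stage). Whether the numbers pair the arrays was thus not settled. Fits of a single array set were added after seeing the data. Low signals limit what can be seen: 33 of 69 subunits were under the filter.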
